A study of Mus musculus with 12 samples.

Results

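The genes described here encode actin and the proteins that build, cut, cap, bundle, pull on and anchor actin filaments. They were chosen by symbol alone, from a pattern that covers the actin isoforms, the Arp2/3 complex, cofilins, profilins, thymosins, capping protein, diaphanous formins, tropomyosins, myosin chains, alpha-actinins, filamins, vinculin, talins and the ezrin family. The pattern found 47 of the 11806 genes of the table. The pattern itself uses no measured value, but it was set with earlier results of these data known. The annotation holds 74 protein-coding symbols that fit the pattern, and the other 27, among them the smooth-muscle myosin gene Myh11, the enteric actin gene Actg2, the ezrin-family gene Msn and the skeletal actin gene Acta1, are not analysed here.

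The study sequenced RNA from single mouse ovarian follicles, 6 of them vitrified (cooled into a glass-like state for storage) and 6 fresh. The donors of both groups were CD-1 mice, which are outbred, aged 16 days, and the labels give no genetic modification. In both groups each follicle was enclosed in 0.5% alginate, a seaweed gel, and cultured over 8 days; the medium held recombinant follicle-stimulating hormone at 10 mIU/mL. The question set by the series is how the transcriptome of vitrified follicles compares with that of fresh ones. Which follicles came from the same mouse is not in the labels, and the p-values measure the spread between follicles, which may be partly technical.

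The table gives for each gene a total pooled over the 12 libraries, a fold change of vitrified over fresh and a p-value, so levels of single follicles or of each group are not given. The totals summed to 23783958 per the authors' deposited table, of which the 47 genes held 1.75%. Intervals of 95% were derived from each fold change and its p-value, and brackets after a log2 fold change hold this interval. A follicle is a mixture of granulosa, theca and other cells around 1 oocyte, so fewer cells of a type and less RNA per cell cannot be told apart. The marker genes fixed for granulosa cells were measured for 6 of 7 and those for theca for 7 of 8. Their pooled totals were 644 to 1121840 and 382 to 435485 per the authors' deposited table, with medians of 10666 and 1186. The top of the theca range was Hsd3b1 alone, and the next theca total was 17548 (Cyp11a1). Oocyte markers were measured for 7 of 8, with totals of 53.7 to 326 per the authors' deposited table, and immune markers for 0 of 4.

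Actin cycles between single molecules and filaments. Profilin and thymosins hold the single molecules, formins and the Arp2/3 complex start filaments, capping protein stops their growth and cofilin cuts them. Myosin II slides filaments past each other, tropomyosins regulate its access, and crosslinkers and adhesion proteins spread the force to neighbouring filaments and the membrane. In the ovary, granulosa cells use actin for shape, contact with the oocyte and sensing of stiffness, while smooth-muscle actin marks the contractile cells of the theca externa and of vessel walls.

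Several of these genes are textbook targets of serum response factor, which binds the CArG box, a run of A and T bases between a pair of Cs and a pair of Gs. The definition of the box is the same on both strands, though the bases of a single box need not be. It was searched in the 250 bases before the start sites listed by RefSeq (GRCm38.p6). A window was found for 41 of the 47 genes, and 5 of them held a box, or 12.2%. Of the 50 other actin pathway genes with a window, 3 held one, or 6% (Cnn2, Fermt2 and Srf). The share was 1.36% of the 8527 genes of the table with a window and 1.62% of all 27025 genes with a window. A match is a description of the sequence and not a shown binding site. The 5 stretches are shown because the box is the promoter element for which actin genes are best known. The box is in capitals, with up to 20 bases on each side.
Myl9: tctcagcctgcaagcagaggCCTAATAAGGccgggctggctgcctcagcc
Arpc4: CCTAATTTGGtgcccaacctgaggtcgggc
Myl6: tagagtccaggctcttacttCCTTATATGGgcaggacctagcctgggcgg
Actg1: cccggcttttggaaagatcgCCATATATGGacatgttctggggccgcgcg
Vcl: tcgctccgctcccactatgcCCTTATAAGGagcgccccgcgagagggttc
These stretches lie at chr2:156775283-156775332 on the plus strand for Myl9, at chr6:113377863-113377892 on the plus strand for Arpc4 and at chr10:128493030-128493079 on the minus strand for Myl6. The stretch of Actg1 is at chr11:120348556-120348605 on the minus strand and that of Vcl at chr14:20929151-20929200 on the plus strand. The boxes end 41 (Myl6), 81 (Actg1), 152 (Myl9), 218 (Vcl) and 241 (Arpc4) bases before the start site listed by RefSeq. The annotated Myl6 gene spans 128490860 to 128494145, so its stretch lies inside the gene, before an internal start site. The other stretches lie outside the annotated genes. Genes with no window listed included Actb, Actr3b, Arpc5l, Diaph1 and Tln2.

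None of the 47 genes passed the test of vitrified against fresh follicles at an adjusted p of 0.05 (0 of 47), where 0.529% of the 10963 genes with an adjusted p passed per the authors' deposited table. At an unadjusted p under 0.05 there was 1 of 47, the myosin light chain gene Myl12b, against 7.02% of all tested genes (3.24% higher and 3.79% lower). All 47 genes had an adjusted p, so none of them was left out of the adjustment for a low total. This does not cover the other 27 symbols that fit the pattern. The fold changes of the 47 genes were small. The median fold size, in either direction, was 1.12 for the 47 genes and 1.14 for all tested genes per the authors' deposited table. A fold size of at least 1.5 was found for 2 of 47, the formin gene Diaph1 and the smooth-muscle actin gene Acta2, both lower in vitrified follicles, against 9.26% of all tested genes, and at least 2 for 0 of 47, against 1.77%.

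The values lay more often below than above 0. Log2 fold changes were negative for 33 genes and positive for 14, so 70.2% were lower in vitrified follicles, against 53.2% of all tested genes per the authors' deposited table. The median was -0.12 for the 47 genes and -0.02 for all tested genes. The genes are parts of 1 machinery in the same follicles and are not independent, so these counts carry no test.

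The intervals say how large a change the data leave room for. The interval lay wholly within 2-fold in either direction for 31 of 47 genes, or 66.0%, against 69.1% of all tested genes. It lay within 1.5-fold for 20 of 47, or 42.6%, against 23.2% of all tested genes. The genes described here had higher totals than most, with a median of 1413 against 273 for the whole table per the authors' deposited table. Among genes with a total of at least 1000, the interval lay within 1.5-fold for 17 of 27 members and for 55.6% of all 2007 such genes, and under a total of 300 for 0 of 13 members and 1.99% of all such genes.

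**Figure D1:**
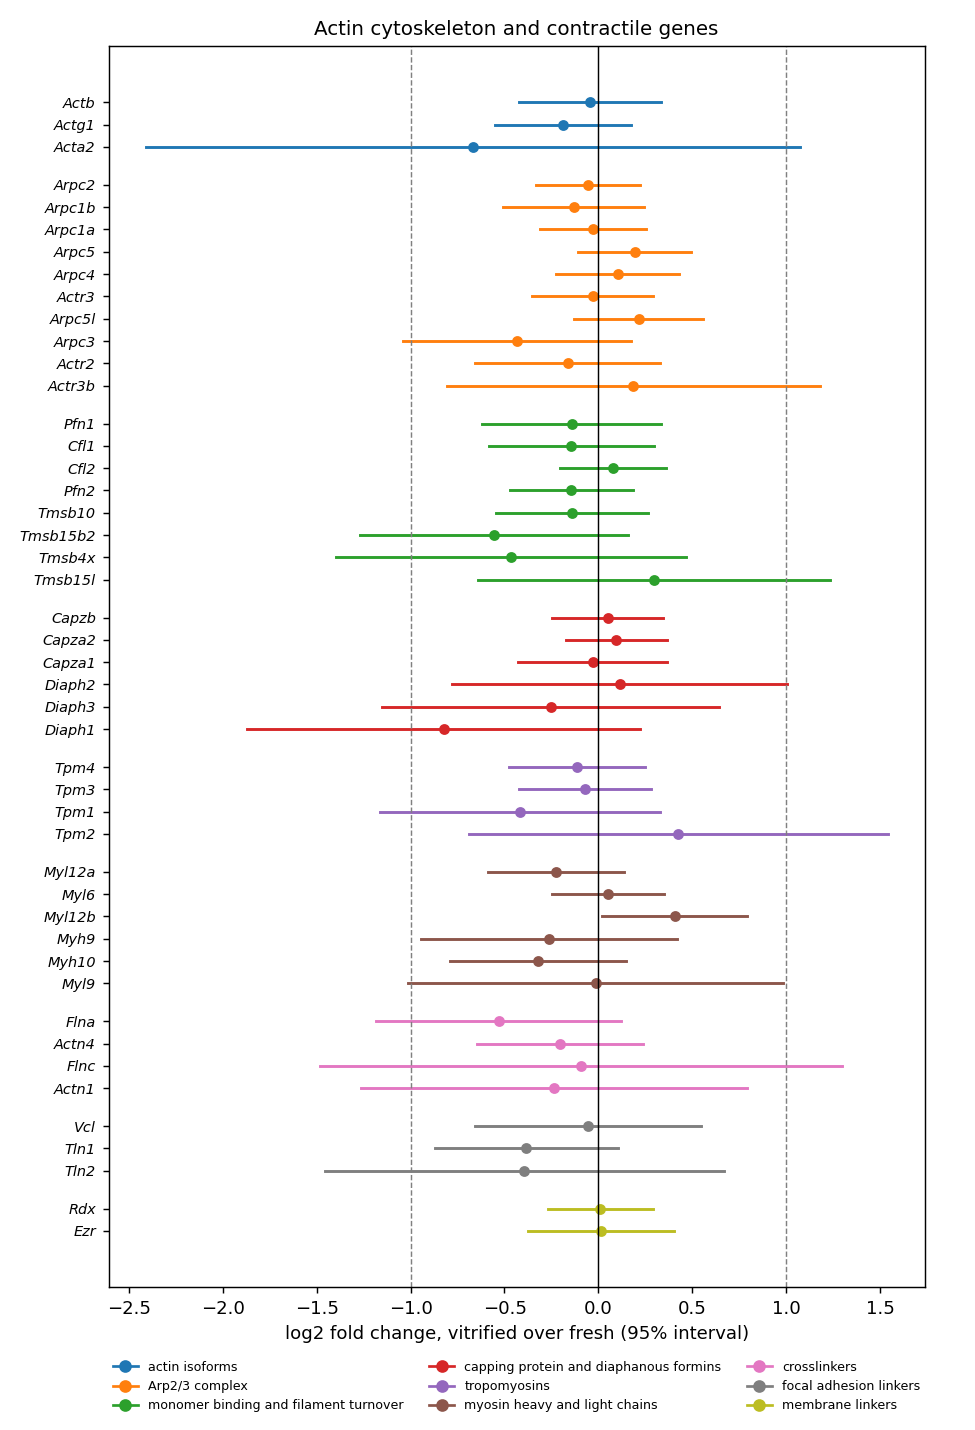
Log2 fold change of vitrified over fresh follicles for 46 of the 47 genes, with the derived 95% interval as a bar, grouped and coloured by role and ordered by pooled total within a role. Dashed lines mark 2-fold lower and higher. Most bars cross 0 and stay inside the dashed lines, Myl12b alone has a bar that does not cross 0, and the bar of Acta2 runs from -2.41 to 1.07.

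The levels of the 47 genes spanned 4 orders of magnitude when each pooled total was divided by the length of the longest annotated transcript. Actb, the cytoplasmic beta-actin gene, stood first with 137809 per kilobase and Actg1, the cytoplasmic gamma-actin gene, second with 39922 per kilobase. Beta-actin thus had 3.45 times the counted level of gamma-actin per kilobase. That ratio depends on how reads of near copies were assigned, which is not given. The pseudogene Gm12715, a near copy of Actg1, was counted with 37.4% of the total of Actg1. For Actb, the pseudogene Gm15725 was counted with 4.59% of the total of Actb. The profilin gene Pfn1 followed with 4002 and the cofilin gene Cfl1 with 3112 per kilobase. These genes and the tropomyosin gene Tpm4, with 1858 per kilobase, kept places 1 to 5 when the length of all exons together was used. At the low end were the talin gene Tln2 with 5.55 and the formin genes Diaph2 and Diaph1 with 11.7 and 16.3 per kilobase. The spread of these levels between follicles is not given, so it was not tested which neighbours in the order differ.

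**Figure D2:**
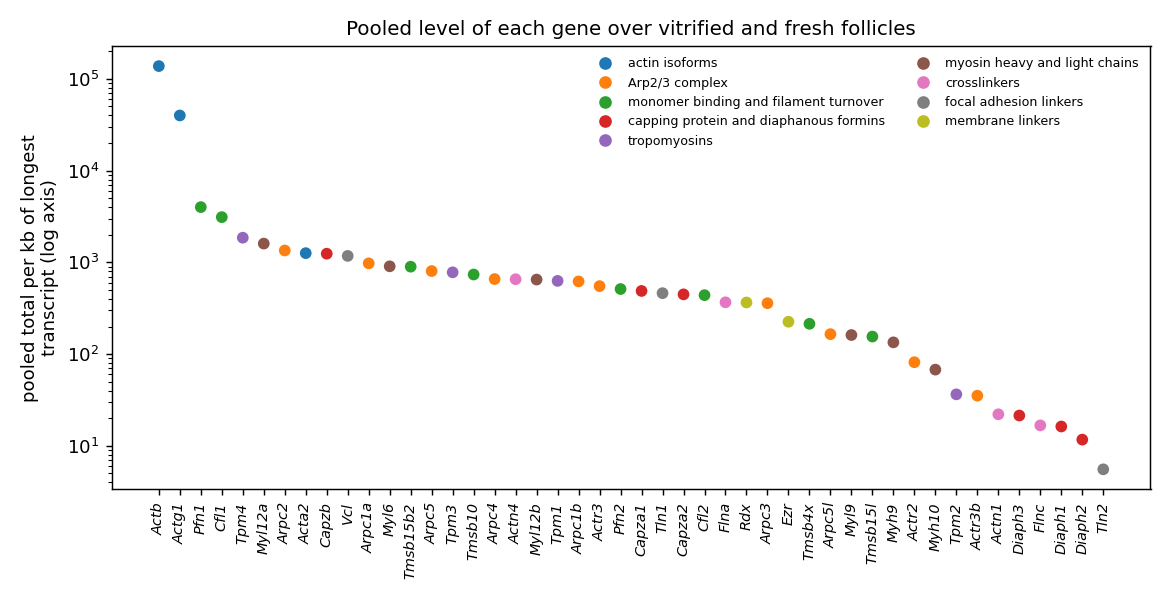
Pooled total per kilobase of the longest transcript for 46 of the 47 genes on a log axis, over vitrified and fresh follicles together, coloured by role and ordered from high to low. Actb at 137809 and Actg1 at 39922 stand apart from the other genes, of which Pfn1 comes next at 4002.

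Actin itself was measured through 3 isoforms. Actb, on chromosome 5 from 142903115 to 142906754 (GRCm38), had the 7th highest total of the table, 264593, and a log2 fold change of -0.04 (95% interval -0.42 to 0.34) per the authors' deposited table, with p = 0.82. Actg1, on chromosome 11 from 120345690 to 120348542, had a total of 77927 and a log2 fold change of -0.19 (-0.55 to 0.17) per the authors' deposited table, with p = 0.31. Both intervals stay within 1.5-fold, so a larger change of either cytoplasmic actin lies outside them. Acta2, on chromosome 19 from 34241090 to 34255590, had a total of 2565 and a log2 fold change of -0.67 per the authors' deposited table, with p = 0.45. Its interval of -2.41 to 1.07 is the widest of the 47 genes and leaves room for a 5.31-fold lower or a 2.10-fold higher value.

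Counts of the cytoplasmic actins depend on how reads of near copies were assigned, and neither the labels nor the file header give that rule. The coding sequences of Actb and Actg1, each of 1128 bases, were identical at 1000 positions, or 88.7%, with a longest identical run of 62 bases. The stretch of 60 bases in which they differ most is shown to give an idea of what separates their reads. Capitals mark the 13 differing bases, at coding positions 58 to 117.
Actb: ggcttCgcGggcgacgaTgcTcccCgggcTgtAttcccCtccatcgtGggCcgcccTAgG
Actg1: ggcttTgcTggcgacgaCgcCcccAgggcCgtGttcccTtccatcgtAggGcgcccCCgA
These exonic coding stretches lie at chr5:142905570-142905629 and chr11:120347975-120348034, both on the minus strand of GRCm38. Processed pseudogenes were the closer copies. Of the 50-base windows of Actg1, 57.1% occur in a transcript of another gene, most of them in the pseudogene Gm12715, which shares 51.9% of the windows. Gm12715 was counted with a total of 29130, which is 37.4% of that of Actg1, and stood at -0.41 (-0.95 to 0.14) per the authors' deposited table. The pseudogenes Actg-ps1, Gm8399 and Gm16385, with totals of 7459, 3311 and 2825, had log2 fold changes of -0.50, -0.04 and -0.34 per the authors' deposited table. Actg1 and these 4 near copies were all lower in vitrified follicles, none past the threshold. Of the windows of Actb, 9.33% occur in Lrrc58 and 6.67% in the pseudogene Gm15725. Lrrc58 had a total of 5787 and stood at 0.35 (0.07 to 0.64), with p = 0.015 unadjusted and 0.48 adjusted, per the authors' deposited table. Gm15725 had a total of 12146 and stood at -0.02 (-0.46 to 0.41) per the authors' deposited table.

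The Arp2/3 complex starts branched filaments. Of its 10 genes, 6 were lower and 4 higher in vitrified follicles, with log2 fold changes of -0.43 to 0.21 around a median of -0.03 per the authors' deposited table. The interval of 7 of the 10 lay within 1.5-fold, against 55.6% of all genes with a total of at least 1000. The median total of the 10 was 1453.5. Arpc2, at the centre of the complex and with the highest total of the group, 1940, stood at -0.06 (-0.33 to 0.22) per the authors' deposited table. The alternative subunit genes Arpc1a and Arpc1b had log2 fold changes of -0.03 and -0.13, and Arpc5 and Arpc5l of 0.19 and 0.21, per the authors' deposited table. In neither pair did the alternative subunits stand far apart, with differences of 0.10 (Arpc1a minus Arpc1b) and -0.02 (Arpc5 minus Arpc5l) on the log2 scale. Arpc3 had the lowest p of the group, 0.16, at -0.43 (-1.04 to 0.17) per the authors' deposited table, and Arpc5 came next with p = 0.21. The actin-related genes Actr2 and Actr3, which form the start of the branch, stood at -0.16 and -0.03, and Actr3b, with a total of only 71.6, at 0.19 (-0.81 to 1.18) per the authors' deposited table. Of the windows of Actr3, 49.5% occur in another gene, mainly the pseudogene Gm8822, which had a log2 fold change of -0.02 per the authors' deposited table.

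Of the 8 genes that bind single actin molecules or turn filaments over, 6 were lower and 2 higher, with a median log2 fold change of -0.14 per the authors' deposited table. Pfn1, the widely expressed profilin, had a total of 7992 and a log2 fold change of -0.14 (-0.62 to 0.33), and Pfn2, the profilin best known from neurons, one of -0.14 (-0.47 to 0.18), per the authors' deposited table. Cfl1, the non-muscle cofilin, stood at -0.14 (-0.58 to 0.30) and Cfl2, the muscle cofilin, at 0.08 (-0.20 to 0.36) per the authors' deposited table. Both cofilins were measured well enough that a 2-fold change lies outside their intervals. Tmsb4x, which encodes the main actin-holding peptide of many cells, had a total of only 185 and a log2 fold change of -0.46 (-1.39 to 0.47), with p = 0.33, per the authors' deposited table. Tmsb10, a related peptide, had a total of 509 and a value of -0.14 (-0.54 to 0.26) per the authors' deposited table. Per kilobase, Tmsb4x thus stood at 214 and Tmsb10 at 737. Of the windows of Tmsb10, 42.3% occur in another gene, so its count is uncertain, while for Tmsb4x that share was 0.

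The X-linked genes Tmsb15b2 and Tmsb15l pointed in opposite directions. Tmsb15b2 had a log2 fold change of -0.56 (-1.27 to 0.16), with p = 0.13, and Tmsb15l one of 0.30 (-0.64 to 1.23) per the authors' deposited table. They overlap each other on the same strand, over 423 bases of exon, and 64.7% and 64.5% of their windows occur in another gene. The assignment of reads between them is therefore uncertain, and neither value passed the test.

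Capping protein, which closes the growing end of filaments, was measured within narrow intervals. Its subunit genes Capzb, Capza2 and Capza1 had log2 fold changes of 0.05 (-0.25 to 0.34), 0.10 (-0.17 to 0.37) and -0.03 (-0.43 to 0.37) per the authors' deposited table, all within 1.5-fold. Capza1 shares 73.0% of its windows with Gm3608, a pseudogene counted with a total of 1184 against 1559 for Capza1 itself, and Gm3608 stood at -0.10 (-0.51 to 0.31) per the authors' deposited table. The diaphanous formins, which extend unbranched filaments, were at totals of 93.4 to 98.7 per the authors' deposited table. Diaph1, on chromosome 18 from 37843601 to 37935476, had the most negative value of the 47 genes, -0.82 (-1.87 to 0.22), or 1.77-fold lower, with p = 0.12 (adjusted p = 0.87) per the authors' deposited table. Diaph3 and Diaph2 stood at -0.25 (-1.15 to 0.64) and 0.11 (-0.78 to 1.00) per the authors' deposited table. At the errors of these genes a difference of 3.17-fold to 3.88-fold would have been needed to pass the threshold, so smaller changes were not detectable.

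Tropomyosins coat filaments and set which myosins can bind. Tpm4, the isoform gene with the highest total, 3953, stood at a log2 fold change of -0.12 (-0.48 to 0.25), and Tpm3 at one of -0.07 (-0.42 to 0.28), per the authors' deposited table. Tpm1, which also makes the muscle isoforms, stood at -0.42 (-1.16 to 0.33), with p = 0.27, per the authors' deposited table. Tpm2, at a total of only 79.3, stood at 0.42 (-0.69 to 1.54), with p = 0.46, per the authors' deposited table. Tpm3 and Tpm1 had almost the same total, 1849 and 1816 per the authors' deposited table, but the derived standard error of Tpm1 was 0.38 and that of Tpm3 was 0.18 on the log2 scale. Tpm3-rs7, a gene related in sequence to Tpm3 with 17.2% of the windows of Tpm3, had a log2 fold change of 0.51 (0.05 to 0.98), with p = 0.031 unadjusted and 0.61 adjusted, per the authors' deposited table.

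Non-muscle myosin II is built from a heavy chain, an essential light chain and a regulatory light chain whose phosphorylation switches the motor on. Myl12b, on chromosome 17 from 70973133 to 70990890, encodes a regulatory light chain and was 1.33-fold higher in vitrified follicles, at a log2 fold change of 0.41 (0.02 to 0.79) per the authors' deposited table. Its p was 0.038 unadjusted and 0.66 adjusted per the authors' deposited table, so it did not pass. Its neighbour Myl12a, on chromosome 17 from 70993656 to 71002878, stood at -0.23 (-0.59 to 0.13), with p = 0.22, per the authors' deposited table. Myl12a minus Myl12b gives a difference of -0.63 on the log2 scale. It was not tested, because the covariance of 2 genes of the same libraries cannot be had without values per follicle. The essential light chain gene Myl6 stood at 0.05 (-0.25 to 0.35) per the authors' deposited table. The heavy chain genes Myh9 and Myh10 stood at -0.26 (-0.94 to 0.42) and -0.32 (-0.79 to 0.15), with p = 0.45 and p = 0.18, per the authors' deposited table. Myl9, the regulatory light chain gene of smooth muscle, had a total of 182 and a value of -0.02 (-1.01 to 0.98), per the authors' deposited table. The value of Myl9 turns to 0.0067 when fold changes are centred on the median of all tested genes.

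The pair Myl12a and Myl12b is nearly identical in its coding sequence, with 501 of 519 bases the same, or 96.5%, and a longest identical run of 105 bases at the end of it. The 60-base stretch with most differences, coding positions 185 to 244, is shown to give an idea of what separates reads of the pair in the coding sequence. Its 7 differing bases are in capitals.
Myl12a: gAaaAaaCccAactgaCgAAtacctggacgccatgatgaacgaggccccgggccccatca
Myl12b: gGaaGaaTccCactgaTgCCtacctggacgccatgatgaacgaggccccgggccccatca
The stretches lie in exons at chr17:70996212-70996271 for Myl12a and chr17:70975561-70975620 for Myl12b, both on the minus strand of GRCm38. Of the windows of Myl12a 30.3% and of those of Myl12b 10.7% occur in another gene. The annotation also gives the symbol Myl12b to a second gene that overlaps 462 exon bases of Myl12a. How reads in such places were assigned was not tested, so both values are uncertain.

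The crosslinkers were all lower, 5 of 5, with log2 fold changes of -0.53 to -0.09 around a median of -0.24 per the authors' deposited table, none past the test. Flna, filamin A, which holds filaments in nets and ties them to integrins, had a total of 3104 and a log2 fold change of -0.53 (-1.18 to 0.12), with p = 0.11, per the authors' deposited table. Its p was the second lowest of the 47 genes, after Myl12b. The muscle filamin gene Flnc stood at -0.09 (-1.48 to 1.29) per the authors' deposited table. The non-muscle alpha-actinin genes Actn4 and Actn1, whose products bundle stress fibres, stood at -0.21 (-0.65 to 0.24) and -0.24 (-1.26 to 0.79) per the authors' deposited table. Per kilobase, Actn4 had 29.7 times that of Actn1.

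Among the linkers of focal adhesions, the talin gene Tln1, which couples integrins to actin, had a total of 3875 and a log2 fold change of -0.38 (-0.87 to 0.10), with p = 0.12, per the authors' deposited table. Tln2 stood at nearly the same value, -0.39 (-1.46 to 0.67), but at a total of 67.3 per the authors' deposited table, and its interval was wider. Vcl, vinculin, which strengthens the bond under tension, had a total of 6195 and a log2 fold change of -0.05 (-0.66 to 0.55), with p = 0.86, per the authors' deposited table. Exons of Ap3m1, on the other strand, overlap 25.5% of the exon bases of Vcl, so its count is uncertain if strand was not used. The linkers of the cell membrane, Rdx (radixin) and Ezr (ezrin), stood at 0.01 (-0.27 to 0.29) and 0.01 (-0.37 to 0.40) per the authors' deposited table. They were the members closest to 0, and both intervals lay within 1.5-fold.

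The 5 genes with a CArG box in the stretches printed above had log2 fold changes of 0.05 (Myl6), -0.19 (Actg1), -0.02 (Myl9), -0.05 (Vcl) and 0.10 (Arpc4) per the authors' deposited table. The value of Actg1 was the largest in size. None had an unadjusted p under 0.05 (0 of 5), where 7.02% of all tested genes did. At that share a count over 5 genes cannot tell them from other genes. The gene of serum response factor itself, Srf, had a total of 53.6, too low for an adjusted p, and a log2 fold change of 0.11 (-1.14 to 1.35) per the authors' deposited table. Its actin-regulated partners Mrtfa and Mrtfb, at totals of 871 and 851, stood at 0.01 (-0.53 to 0.54) and 0.34 (-0.21 to 0.89) per the authors' deposited table.

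The derived standard error of each gene was ranked among the 200 tested genes closest to it in total, so that depth is held nearly equal. It was above the 90th percentile for 9 of 47 genes, or 19.1%, against 10.0% of all tested genes. Acta2, with a standard error of 0.89, exceeded all 200 neighbours and was 4.40 times their median. Flnc also exceeded all of its neighbours, at 1.96 times their median. Tpm1 stood at the 97.5th percentile (1.96 times the median), Myl9 at the 97th (1.53 times), Myh9 at the 96th (1.67 times) and Flna at the 93.5th (1.72 times). The other 3 were the thymosin genes Tmsb4x, Tmsb15b2 and Tmsb15l. Genes with unusually small errors were some subunits of the Arp2/3 complex, a subunit of capping protein, a cofilin and radixin. They were Capza2 at the 2nd percentile, Cfl2 at 4.5, Arpc5l at 7, Rdx at 7.5, Arpc1a at 8 and Arpc2 at 8.5. This is 6 of 47 below the 10th percentile or 12.8%, against 9.88% of all tested genes. Other genes of the same kinds were not low, with Arpc3 at 83, Capza1 at 61.5 and Cfl1 at 64.5. By role, the median percentile was 21 for the Arp2/3 complex and 79 for the crosslinkers.

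Markers of some cell types also had large errors for their totals. The median percentile was 44.8 over 6 granulosa markers, 98.5 over 7 theca markers, 98.8 over the 6 tested oocyte markers and 96 over 4 stroma markers. The endothelial markers Cdh5 and Pecam1, at totals of 1912 and 86.4 and log2 fold changes of -1.66 (-3.45 to 0.13) and -1.25 (-3.41 to 0.91) per the authors' deposited table, both exceeded all their neighbours. So did the pericyte marker Cspg4, at a total of 272 and a log2 fold change of -0.14 per the authors' deposited table. Of the 9 smooth muscle and pericyte markers 4 were measured, with totals of 27.8 to 2565 per the authors' deposited table, of which Acta2 was the highest. No marker of any of these cell types passed the adjusted threshold, and differences between the lists were not tested. Of the tested markers, 6 of 6 for the oocyte, 5 of 7 for theca, 3 of 4 for stroma and 3 of 6 for granulosa were higher in vitrified follicles. The 3 tested smooth muscle and pericyte markers and the 2 endothelial ones were all lower, where 53.2% of all tested genes were. Median log2 fold changes were 0.81 for the oocyte list and 0.47 for theca per the authors' deposited table. The part of these cell types in the values and errors of the contractile genes was not tested.

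**Figure D3:**
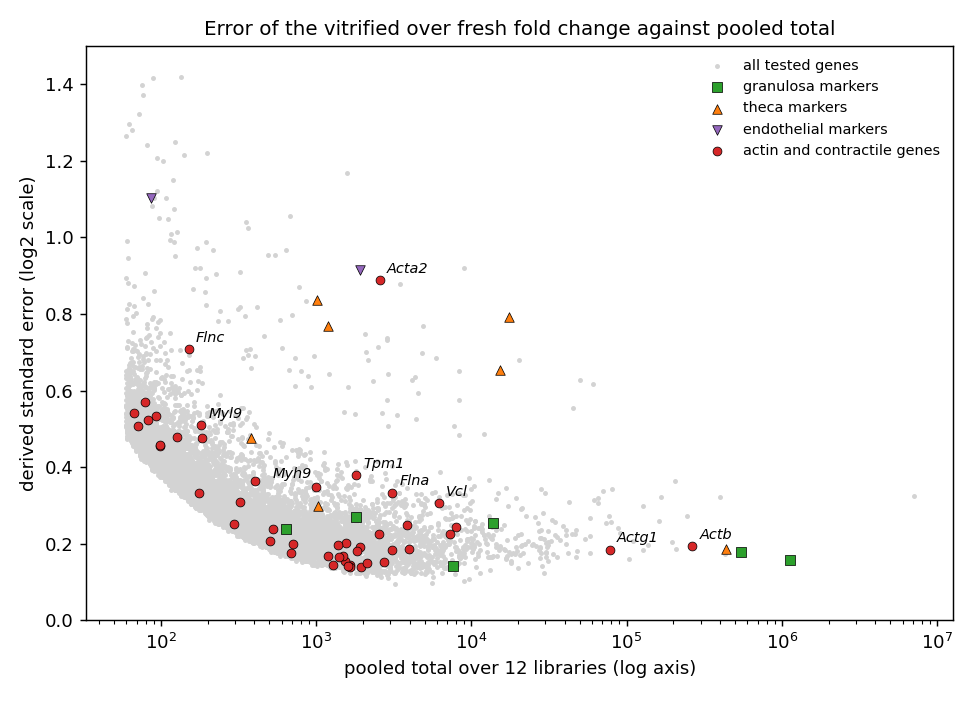
Derived standard error of the log2 fold change of vitrified over fresh follicles against the pooled total (log axis) for all tested genes in grey, the 47 actin and contractile genes in red, and markers of granulosa, theca and endothelial cells as squares and triangles. The vertical axis ends at 1.5, above which 6 genes lie. Acta2 at 0.89 stands far above genes of its total and near theca and endothelial markers, while Actb and Actg1 lie in the main cloud at 0.19 and 0.18.

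The other genes of the actin pathway were read from a list of 77 regulators, adhesion proteins and targets, of which 64 were measured and 61 had an adjusted p. None passed (0 of 61), and 3 of 61 had an unadjusted p under 0.05, against 7.02% of all tested genes in either direction. All 3 were lower in vitrified follicles, and 3.79% of all tested genes were lower at that level. Of the 61, 38 were lower and 23 higher, or 62.3% lower, with a median log2 fold change of -0.10 per the authors' deposited table. Rac1, the GTPase that drives flat protrusions, had a log2 fold change of -0.63 (-1.19 to -0.07), with an unadjusted p of 0.028, per the authors' deposited table. Cyfip1, a subunit of the WAVE complex through which Rac activates Arp2/3, stood at -0.37 (-0.69 to -0.05), with an unadjusted p of 0.022, per the authors' deposited table. Spire1, an actin nucleator known from oocytes, stood at -0.86 (-1.64 to -0.08) at a total of 115, with an unadjusted p of 0.030, per the authors' deposited table. Their adjusted p-values per the authors' deposited table were 0.59, 0.54 and 0.60.

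Values of the other named regulators lay on both sides of 0. The cofilin phosphatase gene Ssh1 and the formin gene Daam1 stood at -0.42 (-0.88 to 0.03) and -0.76 (-1.61 to 0.09) per the authors' deposited table. Rhoa, which switches on formins and myosin through its kinases, had the highest total of its group, 7497, and a log2 fold change of 0.16 (-0.15 to 0.47) per the authors' deposited table. Cttn, cortactin, which stabilises branches, stood at 0.12 (-0.20 to 0.45) and Dstn, a relative of cofilin, at 0.10 (-0.26 to 0.45) per the authors' deposited table. The adhesion kinase-like gene Ilk stood at 0.07 (-0.48 to 0.62) per the authors' deposited table. Of the intervals, 8 of 9 lay within 2-fold for the severing and pointed-end genes and 11 of 12 for the adhesion-site genes. The median totals of these groups were 898 and 987. Among all tested genes 69.1% lay within 2-fold, and among those with a total of at least 1000 it was 90.7%. Median log2 fold changes of these groups were 0.03 and -0.09 per the authors' deposited table. Fscn1, fascin, which bundles filaments in cell extensions, had a total of 9807 and a log2 fold change of -0.40 (-0.96 to 0.16) per the authors' deposited table. Ccn2, a target of both serum response factor and the Hippo pathway, stood at -0.01 (-0.49 to 0.48) per the authors' deposited table, and its sign turns once the median of all tested genes is subtracted.

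Over the 7 tested bundling and smooth-muscle-type genes the median percentile of the standard error was 98.5, and 6 of 7 were lower in vitrified follicles, with a median log2 fold change of -0.40 per the authors' deposited table. Tagln2, Cnn2 and Cald1, at totals of 383, 326 and 286, stood at -0.56 (-1.86 to 0.73), -0.40 (-1.48 to 0.69) and -0.41 (-1.36 to 0.53) per the authors' deposited table. Their standard errors stood at percentiles 99.5, 99 and 98.5. Tagln, the smooth-muscle marker transgelin, had a total of only 27.8 and no adjusted p per the authors' deposited table. It was 9.63-fold lower, a value of -3.27 (-5.88 to -0.65) on the log2 scale, with an unadjusted p of 0.014, per the authors' deposited table.

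**Figure D4:**
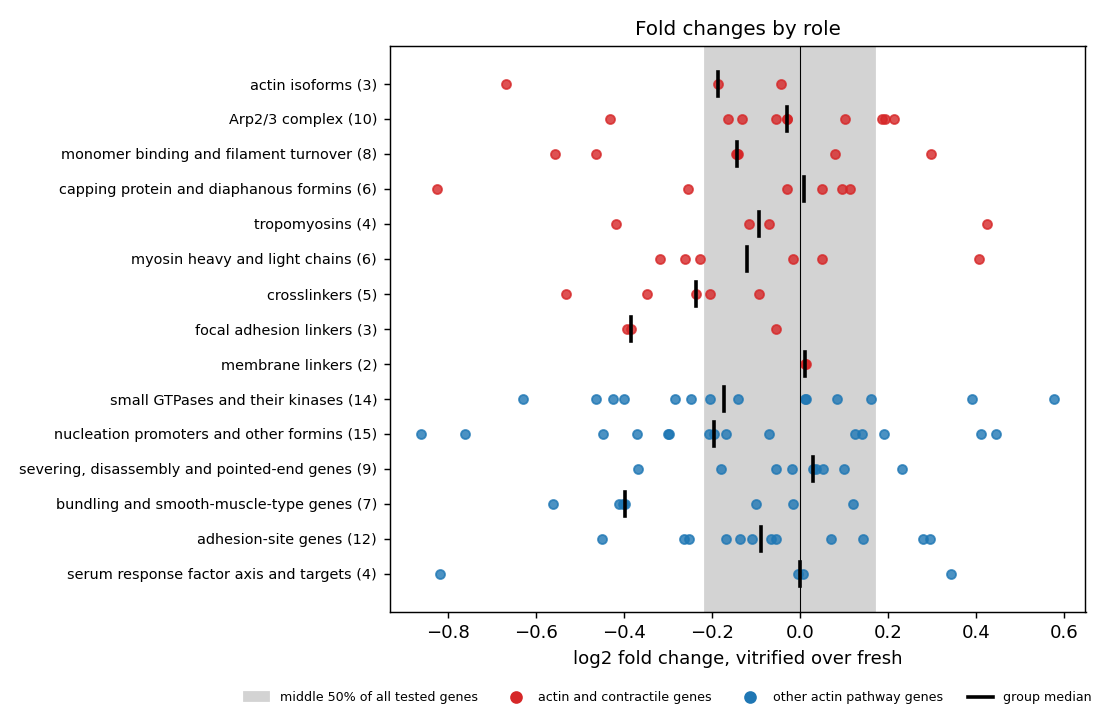
Log2 fold change of vitrified over fresh follicles for each tested gene, by role. The 47 actin and contractile genes are red, the 61 other pathway genes blue, black ticks mark group medians, numbers in brackets give the genes per group and the grey band spans the middle 50% of all tested genes (-0.22 to 0.17). The medians of crosslinkers (-0.24), focal adhesion linkers (-0.38) and bundling and smooth-muscle-type genes (-0.40) lie left of the band and those of the other groups inside it.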

How the data were processed

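Single-follicle libraries followed a Smart-seq protocol, per the labels' protocols. DESeq2, Partek, HISAT2 and Bowtie2 appear in the submitters' processing notes with the build mm10, without version, role or order. The sources used here do not give the counting rule, strand use or annotation. Per the file headers, the authors deposited a total count per gene (a pooled score, since only 0.237% of totals are whole within 0.001), a signed fold score, a log2 fold change, a p-value and its step-up adjustment. An adjusted p is missing for 843 genes of low total, all under 59.5. No depth per library is given. The 47 genes, the role groups and the pathway list were chosen with earlier results of these data known.

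The planned test was the deposited one, at an adjusted p of 0.05. A Wald statistic was derived as the normal quantile of p with the sign of the fold change, the standard error by dividing the log2 fold change by it, and 95% intervals from these. This assumes a normal test. Errors were ranked among the 200 genes nearest in total. Symbols were matched to GENCODE M21 (GRCm38, the same assembly as mm10), 11663 by symbol, 84 by 1 older symbol and 59 not at all. Windows of 50 bases, every 25 bases of the longest transcript, were looked up in transcripts of other genes. Promoters are from RefSeq. Python 3.11.15, numpy 2.4.6, scipy 1.17.1 and pandas 2.3.3 were used, and the steps were tested on simulated data.

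Named in full were, per role, the gene of highest total and the 2 of lowest p, and any with p under 0.05. Of the pathway list these were the 6 of lowest p and the highest total per group. Other named members give the range. Srf, Mrtfa, Mrtfb, Tagln2, Cnn2, Cald1, Cdh5, Pecam1, Cspg4, Insl3, Star, Ptch1, Hsd3b1 and the near copies were chosen after their values were seen. The values of 1 crosslinker are not reported here. Alternatives were no filter on totals, a total of at least 120, centring, a t distribution and leaving out genes that share at least 50% of windows.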

Additional observations from a re-analysis of the deposited data

How the results depend on the processing

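The count of members past the adjusted threshold was 0, and that of other pathway genes 0, with no filter on totals, at a total of at least 120, after centring on the median of all tested genes, with a t distribution of 10 degrees of freedom and without genes that share at least 50% of their windows. The number of members lower in vitrified follicles was 33 of 47, also with no filter and with the t distribution, 29 of 40 at a total of at least 120, 32 of 47 after centring and 30 of 43 without genes that share windows, and their median log2 fold change ran from -0.12 to -0.09. With the t distribution the count at an unadjusted p under 0.05 was 0 in place of 1 (Myl12b), which follows from its heavier tails. Over all genes that distribution leaves 0 of 10963 past the threshold in place of 58, and which distribution the authors' test used is not stated. Centring turned the sign of Myl9 (0.0067 in place of -0.02) and of Ccn2 (0.0167 in place of -0.0052). No paired analysis was possible because the table holds no values per follicle, and for the same reason leaving out single follicles was not run. Intervals reached past 2-fold for the formins, Tpm2, Tln2, Actn1 and Actr3b, at totals of 67.3 to 98.7. Past 2-fold were also those of Arpc3, Flnc, Myl9, Tpm1, Acta2 and Flna, at totals of 151 to 3104. The intervals of Tmsb4x, Tmsb15b2 and Tmsb15l reached past 2-fold too and were wide also for their totals.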
